A study of Rattus norvegicus with 30 samples.

Results

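Primary rat hippocampal neurons treated for 4 h with cannabidiol (CBD) were compared with neurons that received its vehicle, ethanol (EtOH), alone. The comparison holds 6 of the 30 RNA-sequencing libraries of the series, 3 with CBD and 3 with EtOH, chosen by their labelled treatment and time. All 18773 genes annotated as protein_coding, of 19936 genes listed for these libraries, were taken, and 14092 of them passed a filter on low counts. The neurons came from wild-type Wistar rats at embryonic day 18 and were grown for 7 days before treatment. CBD was given at 6 µM, and EtOH was at 0.2% in both groups. Each experiment was run 3 times per the labels, which number the libraries of every group 1 to 3 without saying that equal numbers mark the same preparation. In the same series, neurons received CBD for 24 h, or dimethyl fumarate (DMF) or monomethyl fumarate (MMF), both at 30 µM in 0.2% dimethyl sulfoxide (DMSO). The cells were dissociated hippocampi, and the protocol names no step that separated neurons from other cells.

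Several stress and nutrient circuits report on the state of a neuron through their target genes. Free zinc is sensed by the transcription factor MTF1, which binds metal response elements and switches on metallothioneins, small proteins that bind zinc, and the zinc exporter ZnT1. Unfolded proteins in the endoplasmic reticulum (ER) activate the sensors IRE1, PERK and ATF6, which raise chaperones and, through ATF4, genes of amino acid supply and of the integrated stress response. Sterol shortage releases SREBP factors, which raise the enzymes of cholesterol synthesis, and sterol excess has the opposite effect. The genes of each circuit are described here in turn, each with its known role.

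Between 15329055 and 22625550 reads per library lay on genes. The values are normalized counts, that is, reads per gene divided by a size factor for each library. Mitochondrially encoded genes took 4.27 to 4.77% of the reads with CBD and 4.39 to 6.05% with EtOH. The 9 neuronal markers, among them *Map2*, *Tubb3* and *Snap25*, summed to 98400 to 118207 normalized counts with CBD and 104446 to 122992 with EtOH. The 8 astrocyte markers summed to 42274 to 99480 and 46561 to 92737, and the 8 markers of the oligodendrocyte lineage to 13060.5 to 16611 and 12850 to 15516, so the cultures also held glial RNA. The 9 microglial markers stayed between 31.9 and 188 in sum, and the 5 listed markers of endothelial cells and pericytes between 351 and 498. In such bulk samples, fewer cells of a type and less RNA per cell cannot be told apart.

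After 4 h with CBD, 330 of 14193 genes tested were DEGs (differentially expressed genes, adjusted p under 0.05 in limma with the replicate number as a block), which is 2.33%. Of these, 235 were upregulated (1.66%) and 95 downregulated (0.669%), and all were protein_coding. Their changes were mostly small. The median absolute log2FC (log2 fold change, CBD over EtOH, on normalized counts with a pseudocount of 1) was 0.33, and 254 DEGs lay between -0.5 and 0.5. A log2FC above 1 was found for 21 DEGs and one below -1 for 3, namely *Slc39a10*, *Npas4* and *FAM187A*. The log2 ratio had the same sign in all 3 replicate numbers for 323 DEGs, against 36.1% of all genes tested. For 162 DEGs all libraries of 1 group lay above all of the other, as they did for 9.95% of all genes tested (CBD above in 4.7% and below in 5.25%). The DEGs were selected in these same libraries by a fit that favours agreement between replicate numbers. Both counts therefore describe the DEGs and give no separate support. Without the replicate block, *Slc30a1* was the 1 DEG that remained, although 563 genes had an unadjusted p under 0.05. The calls below therefore rest on differences within replicate numbers.

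Zinc-handling genes held the 5 smallest p-values. *Mt1* (ENSRNOG00000025764; chromosome 19 of mRatBN7.2, 10826032 to 10827049) encodes metallothionein 1. It had 2302, 6111 and 2563 normalized counts with CBD in replicates 1, 2 and 3, and 370.0, 362 and 171 with EtOH. Every CBD library lay above every EtOH library, and the CBD library of replicate 2 was the highest. The log2FC was 3.54 (SE 0.157, with adjusted p = 4.25e-11 in limma), an 11.6-fold difference. *Mt2A* (chromosome 19, 10832002 to 10832784), the neighbouring metallothionein 2A gene, had 5218 ± 2656 (SD, n = 3) normalized counts with CBD and 1108 ± 452 (SD, n = 3) with EtOH, at a log2FC of 2.22 (SE 0.128, with adjusted p = 1.24e-09 in limma). *Mt1-ps3* (ENSRNOG00000038047; chromosome 17, 74786654 to 74787135) had a log2FC of 3.27 (SE 0.182, with adjusted p = 9.18e-10 in limma). It is named as a pseudogene copy of *Mt1* but annotated as protein_coding, and how reads shared by the copies were counted is not given in the sources used here, so its value is uncertain. *Mt3*, the metallothionein typical of brain, had a log2FC of -0.05 (SE 0.067, with adjusted p = 0.784 in limma).

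Of 9 zinc exporters of the Slc30 family tested, the genes *Slc30a1* and *Slc30a2* rose, and the other 7 lay between -0.07 and 0.14 on the log2 scale. *Slc30a1* (ENSRNOG00000004749; chromosome 13, 103491037 to 103494910) encodes ZnT1, which moves zinc out of the cell. Its normalized counts were 1373, 1513 and 1426 with CBD and 674, 619 and 611 with EtOH. Both groups were tight, and the log2FC was 1.18 (SE 0.061, with adjusted p = 4.17e-10 in limma). *Slc30a2* (ENSRNOG00000054142; chromosome 5, 146559733 to 146571956) encodes ZnT2, which loads zinc into vesicles. It was low with EtOH, at 12.9, 27.2 and 18.1 normalized counts, and reached 78.2, 412 and 333 with CBD. Replicate 1 was the lowest in both groups, and the log2FC was 3.50 (SE 0.236, with adjusted p = 1.7e-08 in limma).

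Among 11 zinc importers of the Slc39 family tested, *Slc39a10* fell and no other was a DEG. *Slc39a10* (ENSRNOG00000011677; chromosome 9, 54876141 to 54960325) encodes ZIP10, which brings zinc into the cell. It had 1386, 664 and 694 normalized counts with CBD, below the 1943, 1966 and 1858 with EtOH. Replicate 1 again showed the smallest difference, and the log2FC was -1.16 (SE 0.121, with adjusted p = 1.7e-05 in limma). In DESeq2, *Slc39a10* was not a DEG. *Slc39a5* and *Slc39a14* had log2FCs of -0.28 and 0.25 (adjusted p = 0.0503 and 0.0687 in limma). *Mtf1*, the gene of the zinc sensor, had a log2FC of -0.14 (SE 0.073, with adjusted p = 0.394 in limma). In copper handling, 0 of 9 genes were DEGs in limma, edgeR or DESeq2, and 0 had an unadjusted p under 0.05.

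**Figure D1:**
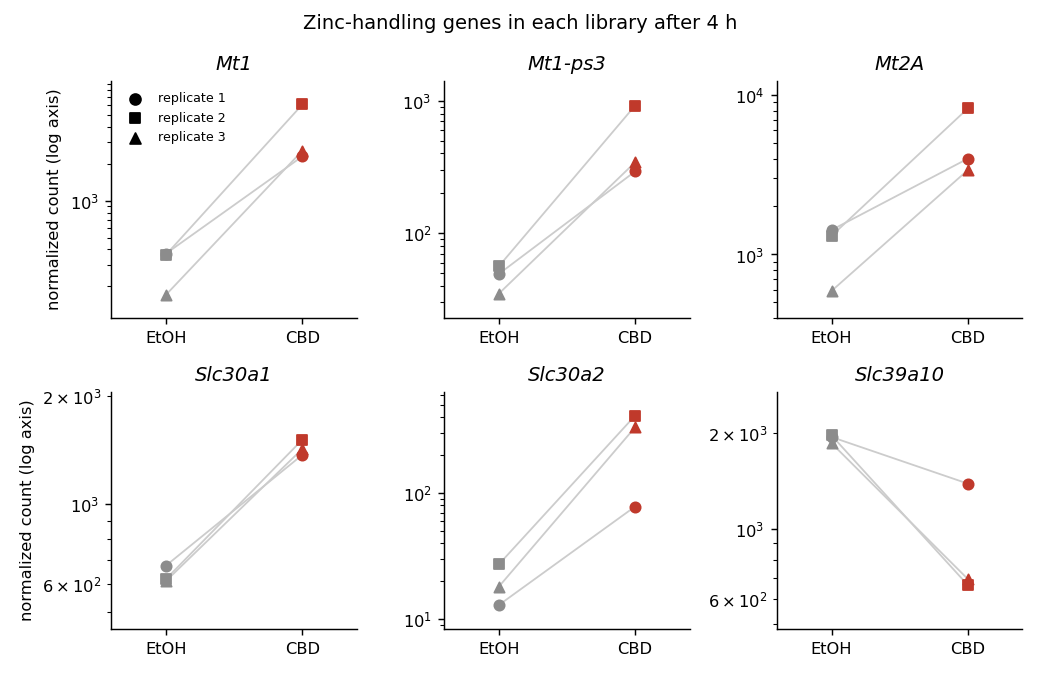
Normalized counts (log axis) of 6 zinc-handling genes in each library after 4 h, with grey symbols for EtOH, red symbols for CBD and a line joining libraries of the same replicate number. In all 6 genes the groups do not overlap, and *Slc39a10* is the 1 gene of the 6 that is lower with CBD.

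The promoters of these genes are shown because MTF1 is known to bind the metal response element in metallothionein and ZnT1 promoters. The bases are the 250 before the annotated start, 5′ to 3′ on the strand of the gene, from RefSeq on build GRCr8, which differs from the build of the deposited coordinates. Capitals mark the core of the metal response element, TGCACNC or TGCGCNC, on either strand, where N is any base. *Mt1* lies at chr19:10832976-10833225 (minus strand), *Mt2A* at chr19:10838709-10838958 (minus strand), *Slc30a1* at chr13:106021769-106022018 (plus strand), the first of 2 *Slc30a2* entries at chr5:151843201-151843450 (plus strand), and *Slc39a10* at chr9:62405183-62405432 (plus strand).
Mt1: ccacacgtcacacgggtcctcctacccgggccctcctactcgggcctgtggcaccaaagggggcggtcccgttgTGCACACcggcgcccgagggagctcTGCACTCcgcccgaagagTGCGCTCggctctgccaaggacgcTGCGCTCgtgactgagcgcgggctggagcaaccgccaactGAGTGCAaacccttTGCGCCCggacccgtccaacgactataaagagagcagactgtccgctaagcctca
Mt2A: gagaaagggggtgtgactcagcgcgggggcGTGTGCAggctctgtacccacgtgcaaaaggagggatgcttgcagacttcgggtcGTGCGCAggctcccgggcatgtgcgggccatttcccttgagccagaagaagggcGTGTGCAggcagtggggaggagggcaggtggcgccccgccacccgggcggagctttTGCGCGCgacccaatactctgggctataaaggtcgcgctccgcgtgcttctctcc
Slc30a1: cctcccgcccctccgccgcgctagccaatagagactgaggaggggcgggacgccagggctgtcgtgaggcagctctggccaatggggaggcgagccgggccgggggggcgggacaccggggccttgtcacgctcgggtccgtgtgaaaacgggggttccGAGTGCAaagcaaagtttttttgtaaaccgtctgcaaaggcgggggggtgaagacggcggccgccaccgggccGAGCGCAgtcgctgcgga
Slc30a2: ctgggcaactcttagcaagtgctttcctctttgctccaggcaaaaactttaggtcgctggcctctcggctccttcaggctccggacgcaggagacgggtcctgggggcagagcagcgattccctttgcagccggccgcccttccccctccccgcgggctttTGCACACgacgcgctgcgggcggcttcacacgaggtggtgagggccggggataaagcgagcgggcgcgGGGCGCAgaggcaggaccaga
Slc39a10: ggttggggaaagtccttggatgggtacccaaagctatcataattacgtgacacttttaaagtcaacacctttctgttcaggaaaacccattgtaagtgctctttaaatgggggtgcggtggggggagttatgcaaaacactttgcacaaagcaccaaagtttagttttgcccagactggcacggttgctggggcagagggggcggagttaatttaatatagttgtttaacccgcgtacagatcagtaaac
The *Mt1* promoter holds 6 matches and that of *Mt2A* 4. *Slc30a1* and the first *Slc30a2* entry hold 2 each, while the other *Slc30a2* entry and *Slc39a10* hold 0 in this window. Genes of these families that were not DEGs hold the core as well, with 3 matches for *Mt3* and 2 each for *Slc30a4*, *Slc30a5*, *Slc39a11* and *Slc39a13*. Of the listed genes with a promoter in the table, 4 of 4 metallothioneins, 4 of 7 exporters and 4 of 12 importers hold at least 1 match. Of all 33469 promoters in the table, 20.6% hold at least 1 match and 4.9% hold 2 or more. A match describes the letters only and shows no binding.

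ER chaperones and other genes of the unfolded protein response rose together. Of 23 members tested, 15 were upregulated and 0 downregulated, against 1.66% of all genes upregulated, and their median log2FC was 0.36 beside -0.00 for all genes tested. *Hspa5* (ENSRNOG00000018294; chromosome 3, 18055405 to 18059891) encodes BiP, the main chaperone of the ER. It had 11636, 18202 and 18172 normalized counts with CBD and 8452, 8926 and 8983 with EtOH, which did not overlap. Its log2FC was 0.83 (SE 0.075, with adjusted p = 2.19e-06 in limma). *Herpud1* (ENSRNOG00000018796; chromosome 19, 10598417 to 10618424), which acts in ER-associated degradation, had 716, 1727 and 2181 normalized counts with CBD and 488, 555 and 612 with EtOH. This was the largest change of the list, with a log2FC of 1.34 (SE 0.141, with adjusted p = 1.74e-05 in limma).

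The other upregulated members covered several steps of ER protein handling. Among chaperones and their partners, *Sdf2l1*, *Creld2*, *Hyou1*, *Hsp90b1* and *Calr* had log2FCs of 0.98, 0.93, 0.50, 0.50 and 0.38. The disulfide isomerase genes *Pdia4*, *Pdia6* and *Pdia3* had log2FCs of 0.73, 0.30 and 0.24. The co-chaperone genes *Dnajb9* and *Dnajc3* rose by 0.53 and 0.45 on the log2 scale. *Syvn1* and *Sel1l*, which form a ubiquitin ligase that removes misfolded proteins, rose by 0.54 and 0.22. *Xbp1*, the transcription factor spliced by IRE1, rose by 0.36, with 1786, 2030 and 2342 normalized counts against 1565, 1564 and 1651. The adjusted p of these 13 genes in limma lay between 6.58e-05 and 0.0266. *Ficd*, outside the list, encodes the enzyme that modifies BiP with AMP, and it rose by 0.79 (SE 0.092, with adjusted p = 6.11e-05 in limma). *Atf6* and *Ern1*, the genes of the sensors ATF6 and IRE1, had log2FCs of 0.13 and 0.10 (adjusted p = 0.394 and 0.728 in limma). Without the block, 0 of the 23 genes were DEGs in limma. With DESeq2, 4 of the 23 genes were upregulated, and with a spread estimated from all 30 libraries 11 were.

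The ER stress element was searched on both strands in the same 250 bases. It is rare, with a match in 22 of 33469 promoters (0.0657%). Of the 15 upregulated genes of the list, 13 had a promoter in the table and 6 held a match. These were *Hspa5*, *Hsp90b1*, *Calr*, *Creld2*, *Dnajc3* and *Xbp1*. Over the whole list of 24 genes, 8 of 18 promoters held it. The element was first described in such genes, so the share says nothing about CBD. Promoters of 4 of them are shown with the element in capitals, to set the letters beside the values: *Hspa5* at chr3:38452766-38453015 (plus strand), *Creld2* at chr7:121789134-121789383 (plus strand), *Hsp90b1* at chr7:23012294-23012543 (minus strand) and *Xbp1* at chr14:84604373-84604622 (plus strand).
Hspa5: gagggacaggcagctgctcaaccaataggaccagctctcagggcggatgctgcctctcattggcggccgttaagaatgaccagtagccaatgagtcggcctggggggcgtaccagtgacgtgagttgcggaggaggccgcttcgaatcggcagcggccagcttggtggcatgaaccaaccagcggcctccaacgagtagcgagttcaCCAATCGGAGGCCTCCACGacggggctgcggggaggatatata
Creld2: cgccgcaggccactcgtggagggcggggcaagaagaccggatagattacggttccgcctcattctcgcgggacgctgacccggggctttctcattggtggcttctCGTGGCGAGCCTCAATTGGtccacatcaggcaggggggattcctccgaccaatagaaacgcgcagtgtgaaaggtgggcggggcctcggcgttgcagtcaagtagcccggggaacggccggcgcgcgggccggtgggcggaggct
Hsp90b1: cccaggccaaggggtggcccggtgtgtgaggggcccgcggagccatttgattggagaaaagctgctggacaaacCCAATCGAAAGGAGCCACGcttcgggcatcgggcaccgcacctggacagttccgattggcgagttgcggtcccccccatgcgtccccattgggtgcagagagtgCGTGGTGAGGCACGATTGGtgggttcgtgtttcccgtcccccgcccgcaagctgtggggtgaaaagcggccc
Xbp1: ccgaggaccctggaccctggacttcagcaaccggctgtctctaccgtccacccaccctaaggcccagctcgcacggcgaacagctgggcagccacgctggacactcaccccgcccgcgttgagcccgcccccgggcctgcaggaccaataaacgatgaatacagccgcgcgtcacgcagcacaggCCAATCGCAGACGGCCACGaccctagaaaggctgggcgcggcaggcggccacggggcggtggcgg
*Hsp90b1* holds the element at 2 places, and the other 3 hold it at 1 place each. The amino acid response element, TGATGNAA, was found in 7 of 29 promoters of the ATF4 list and in 3 of 13 of its DEGs, against 3.4% of all promoters. The sterol regulatory element was found in 0 of 15 promoters of the cholesterol list, against 0.23% of all, which says only that its letters are not in these windows.

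The targets of ATF4 in amino acid supply and the integrated stress response also rose. Of 28 members tested, 16 were upregulated and 0 downregulated, against 1.66% of all genes upregulated. All 28 had a log2FC above 0, with a median of 0.36 beside -0.00 for all genes tested. Among the stress regulators, *Atf3* (chromosome 13, 102751321 to 102764631), an early transcription factor of stressed cells, had 57.8, 261 and 266 normalized counts with CBD against 37.9, 46.2 and 49.1 with EtOH. Its log2FC was 1.83 (SE 0.251, with adjusted p = 0.000317 in limma). *Ddit3* (chromosome 7, 63116380 to 63121201), which encodes CHOP, had 373, 748 and 839 against 279, 272 and 345, a log2FC of 1.05 (SE 0.128, with adjusted p = 0.00011 in limma). *Chac1*, which degrades glutathione, had 211, 905 and 1118 against 241, 218 and 253. Its groups thus overlapped through replicate 1, and its log2FC of 1.33 (SE 0.259, with adjusted p = 0.00702 in limma) came from replicates 2 and 3. *Trib3*, an inhibitor of AKT and ATF4, had 5.34, 78.1 and 107 against 6.90, 12.7 and 16.8, with the same pattern, a log2FC of 1.61 (SE 0.417, with adjusted p = 0.0486 in limma).

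Among amino acid transporters, *Slc7a11*, *Slc7a1*, *Slc3a2* and *Slc7a5* rose by 1.08, 0.58, 0.51 and 0.48 on the log2 scale. *Slc3a2* encodes the shared heavy chain of several of these transporters. It had 5706, 8204 and 6478 normalized counts with CBD and 4770, 5023 and 4412 with EtOH (SE 0.061, with adjusted p = 9.45e-05 in limma). *Sesn2*, a sensor of leucine, and *Stc2*, a secreted stress factor, rose by 0.74 and 1.08. *Eif2ak3*, which encodes the sensor PERK, rose by 0.48, and *Cebpb*, a partner of ATF4, by 0.51. The enzyme genes *Mthfd2*, *Asns* and *Aldh18a1* rose by 0.58, 0.33 and 0.24, and the tRNA synthetase gene *Gars1* by 0.18. The adjusted p of these 11 genes other than *Slc3a2* lay between 0.00126 and 0.0491 in limma. *Atf4* itself had a log2FC of 0.35 (SE 0.093, with adjusted p = 0.0518 in limma). With DESeq2, 1 gene of this list was a DEG, and with a spread estimated from all 30 libraries 0 were, so these calls depend on the way the spread is estimated.

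**Figure D2:**
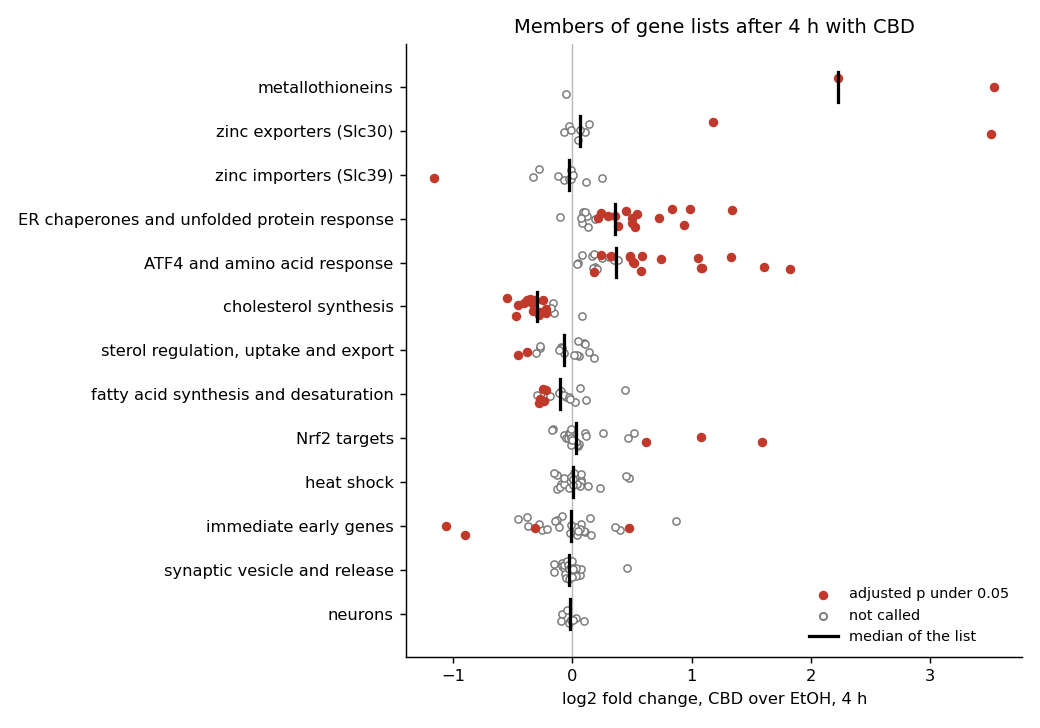
Log2 fold change of CBD over EtOH after 4 h for each tested member of 13 gene lists, with filled points for an adjusted p under 0.05 and a black bar for the median of each list. All 28 ATF4 members and 22 of 23 ER members lie above 0 and all cholesterol members but *Ebp* below it, while heat shock, synaptic vesicle and neuronal genes lie around 0 with no filled point.

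The enzymes of cholesterol synthesis fell by small amounts. Of 20 genes tested, 15 were downregulated and 0 upregulated, against 0.669% of all genes downregulated, and the median log2FC was -0.29. *Sqle* (ENSRNOG00000009550; chromosome 7, 90868011 to 90883618) encodes squalene epoxidase, a rate-limiting enzyme of the later pathway. It had 4867, 4178 and 5440 normalized counts with CBD and 6289, 6192 and 7312 with EtOH. The groups did not overlap, and the log2FC was -0.45 (SE 0.047, with adjusted p = 1.7e-05 in limma). *Idi1*, the isomerase that makes dimethylallyl diphosphate, had 1605, 1472 and 2176 against 2224, 2247 and 2740, a log2FC of -0.47 (SE 0.054, with adjusted p = 5.23e-05 in limma). The largest fall was that of *Nsdhl*, a sterol dehydrogenase gene, with 1525, 1075 and 1660 against 1894, 2019 and 2214 and a log2FC of -0.54 (SE 0.077, with adjusted p = 0.000396 in limma).

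The falls spanned the pathway from its first to its last steps. *Acat2* and *Hmgcs1*, which act in the first steps, fell by 0.32 and 0.33 on the log2 scale. *Mvk*, *Pmvk* and *Mvd*, which turn mevalonate into isopentenyl diphosphate, fell by 0.31, 0.23 and 0.35. *Fdps* and *Fdft1*, which lead to squalene, fell by 0.25 and 0.34. *Cyp51*, *Msmo1* and *Sc5d*, which modify the sterol, fell by 0.27, 0.41 and 0.22. *Tm7sf2*, *Lss*, *Dhcr7*, *Hsd17b7* and *Ebp* were not DEGs, with log2FCs between -0.19 and 0.08. With DESeq2, 10 of the 20 genes were downregulated, and with a spread estimated from all 30 libraries 3 were.

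Genes that regulate sterols and fatty acids followed in part. Of 17 genes of sterol regulation, uptake and export tested, 2 were downregulated and 0 upregulated, against 0.669% of all genes downregulated. *Insig1*, which retains SREBP in the ER, had a log2FC of -0.45 (SE 0.060, with adjusted p = 0.000235 in limma), and *Srebf1*, which encodes SREBP-1, one of -0.38 (SE 0.053, with adjusted p = 0.000396 in limma). *Srebf2*, which encodes SREBP-2, had a log2FC of -0.10 (SE 0.044, with adjusted p = 0.302 in limma). Of 18 genes of fatty acid synthesis and desaturation, 5 were downregulated and 0 upregulated, against the same 0.669%. *Fasn*, *Acly* and *Scd*, which make and desaturate fatty acids, had log2FCs of -0.28, -0.22 and -0.27, and *Acsl3* and *Acsl4*, which activate them, of -0.23 and -0.24 (adjusted p between 0.004 and 0.028 in limma). *Aacs*, outside both lists, makes acetoacetyl-CoA from ketone bodies, and it fell by 0.47 (SE 0.064, with adjusted p = 0.000317 in limma).

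Of 23 targets of the antioxidant factor Nrf2 tested, 3 were upregulated and 0 downregulated, against 1.66% of all genes upregulated. The median log2FC was 0.03. *Hmox1* (ENSRNOG00000014117; chromosome 19, 13467244 to 13474079), which encodes heme oxygenase 1, had 434, 1017 and 874 normalized counts with CBD and 303, 278 and 167 with EtOH. The groups did not overlap, and the log2FC was 1.59 (SE 0.195, with adjusted p = 0.000115 in limma). The others were *Slc7a11*, already given among the ATF4 targets, and the efflux pump gene *Abcc4*, with a log2FC of 0.62 (SE 0.103, with adjusted p = 0.00209 in limma). *Nqo1*, *Txnrd1*, *Gclm* and *Gclc*, further antioxidant targets, had log2FCs of 0.03, 0.11, 0.25 and 0.11 (adjusted p between 0.105 and 0.917 in limma). *Srxn1* and *Osgin1* had larger log2FCs of 0.52 and 0.46 but were not DEGs (adjusted p = 0.358 and 0.565 in limma). With DESeq2, none of the 23 genes was a DEG, and 6 had an unadjusted p under 0.05 in limma. Of 9 regulators of Nrf2, *Maff* was the 1 DEG, against 1.66% of all genes upregulated. It rose by 0.99 (SE 0.233, with adjusted p = 0.0263 in limma), from 20.7, 28.1 and 32.3 to 28.5, 67.5 and 80.9 normalized counts. *Maff* was not a DEG in DESeq2, without a filter, with the spread of all 30 libraries, or without replicate 2 or 3. Of 17 genes of iron and heme, *Tfrc*, the transferrin receptor, fell by 0.26 (SE 0.057, with adjusted p = 0.0159 in limma), *Hmox1* rose and no other was a DEG. Among all genes tested, 0.669% were downregulated and 1.66% upregulated. Of 21 heat shock genes, 0 were DEGs in limma, edgeR or DESeq2, and 6 had an unadjusted p under 0.05 with a list median of 0.00.

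Among the genes with the smallest p outside these lists, *Piga*, which starts the synthesis of membrane anchors in the ER, had 293, 399 and 405 normalized counts with CBD and 191, 207 and 238 with EtOH. Its log2FC was 0.77 (SE 0.096, with adjusted p = 0.000126 in limma). Of the downregulated genes, *Adcyap1*, the neuropeptide PACAP, had 187, 151 and 196 against 325, 254 and 299.7, a log2FC of -0.72 (SE 0.101, with adjusted p = 0.000396 in limma). *Rgs4*, a brake on G-protein signaling, and *Elavl2*, a neuronal RNA-binding protein, had log2FCs of -0.48 and -0.35 (adjusted p = 0.000145 and 0.000604 in limma). *FAM187A* had a log2FC of -1.01 (SE 0.150, with adjusted p = 0.000604 in limma), with 157, 239 and 30.8 normalized counts against 279, 374 and 93.0. Its groups overlapped, since replicate 3 was low in both.

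Immediate early genes, which report on recent neuronal activity, showed no common direction. Of 28 tested, 1 was upregulated and 3 downregulated, against 1.66% and 0.669% of all genes tested. The median log2FC was -0.01. *Egr1* had a log2FC of 0.47 (SE 0.068, with adjusted p = 0.000472 in limma). *Npas4*, which is specific to calcium entry, had 32.9, 15.4 and 36.5 normalized counts with CBD and 65.5, 41.7 and 65.9 with EtOH, a log2FC of -1.06 (SE 0.220, with adjusted p = 0.0112 in limma). *Nr4a3* and *Egr4* had log2FCs of -0.31 and -0.90 (adjusted p = 0.000604 and 0.0494 in limma), and *Fos* and *Arc* of 0.40 and -0.11 (adjusted p = 0.119 and 0.831 in limma). With DESeq2, 2 genes of this list were DEGs.

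Lists of known CBD targets and of neuronal function held few DEGs. Of 13 genes of endocannabinoid receptors and enzymes tested, 0 were DEGs in limma, edgeR or DESeq2, and 1 had an unadjusted p under 0.05. The gene with the smallest p was *Dagla*, which makes 2-arachidonoylglycerol, with a log2FC of 0.15 (SE 0.045, with adjusted p = 0.0848 in limma). Of 17 other receptors and channels that bind CBD, 2 were upregulated, against 1.66% of all genes tested. These were the T-type calcium channel genes *Cacna1g* and *Cacna1i*, with log2FCs of 0.29 and 0.26 (adjusted p = 0.00204 and 0.0113 in limma). With DESeq2, 1 of the 17 was a DEG, and with a spread estimated from all 30 libraries 0 were. *Cacna1i* was not a DEG in DESeq2 or without replicate 3. Of 14 GABA receptor genes and 21 genes of synaptic vesicles and release, 0 were DEGs in limma, edgeR or DESeq2, with 3 unadjusted p-values under 0.05 in each list. Autophagy and lysosome genes (23 tested) and the 9 neuronal markers also held 0 DEGs in the 3 tools and 0 unadjusted p-values under 0.05. The lists of PPAR and lipid droplet targets (17 tested), aryl hydrocarbon receptor targets (8) and proliferation genes (21) held 0 DEGs in limma, edgeR and DESeq2, with 4, 1 and 4 unadjusted p-values under 0.05. Of the 21 proliferation genes, 2 had a log2FC above 0, with a list median of -0.13, and 2 were DEGs in limma without replicate 2. Their median log2 ratio was 0.04 in replicate 2, against -0.14 and -0.23 in replicates 1 and 3.

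The remaining lists held few DEGs, to be read beside 1.66% of all genes upregulated and 0.669% downregulated. Of 15 hypoxia genes, *Vegfa* and *Slc2a1* rose by 0.25 and 0.38, and *Slc2a1*, the glucose transporter GLUT1, also counts among 19 glycolysis genes, where *Pfkfb3*, a glycolytic activator, rose by 0.31. Of 22 p53 targets, *Sesn1* rose by 0.31 (adjusted p = 0.0182 in limma). Of 13 tested inflammation genes, *Icam1* and *Nfkbia* had log2FCs of 1.06 and 0.40, close to the threshold (adjusted p = 0.0491 and 0.0494 in limma), and 12 of the 13 lay above 0 with a median of 0.35. In this list edgeR called 3 genes and limma 5 without replicate 1, while 0 were DEGs in DESeq2 or without replicate 2 or 3, and 7 had an unadjusted p under 0.05. *Sox9* of the astrocyte list and *Olig2* of the oligodendrocyte lineage had log2FCs of 0.35 and 0.24 (adjusted p = 0.00208 and 0.0263 in limma). The medians of these glial lists were -0.00 and -0.01, and the part of glial cells in any result was not tested. All 13 mitochondrially encoded genes had a log2FC below 0, with a median of -0.17, and *Mt-nd3* was a DEG (log2FC -0.29, with adjusted p = 0.000806 in limma). In replicate 1 their median log2 ratio was -0.33, against -0.07 and -0.05 in replicates 2 and 3.

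The replicate numbers differed in the size of the response. For the 28 ATF4 targets, the median log2 ratio of CBD to EtOH was 0.01 in replicate 1, 0.52 in replicate 2 and 0.58 in replicate 3. Replicate 1 had the smallest absolute ratio for 27 of the 28 genes, as it had for 5967 of all 14193 genes tested. For the 23 ER genes, the medians were 0.15, 0.41 and 0.40, with replicate 1 smallest for 22. For the 20 cholesterol genes they were -0.29, -0.43 and -0.21, with replicate 1 smallest for 7. *Mt1* and *Slc30a1* responded in replicate 1 as well, with log2 ratios of 2.63 and 1.02 against 4.07 and 1.29 in replicate 2 and 3.90 and 1.22 in replicate 3. Whether the larger fall of mitochondrially encoded genes in replicate 1 has a part in this was not tested. Without replicate 1, 398 genes were DEGs and 23 ATF4 targets rose. Without replicate 2 the counts were 271 and 14, and without replicate 3 they were 205 and 8.

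**Figure D3:**
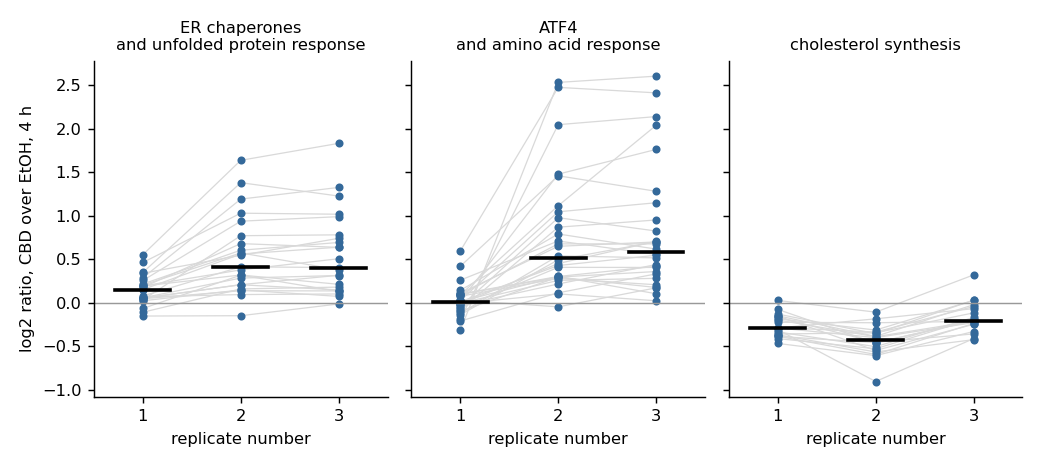
Log2 ratio of CBD over EtOH after 4 h in each replicate number, for the tested members of 3 gene lists, with grey lines joining the values of 1 gene and black bars for medians. The ATF4 targets have a median of 0.01 in replicate 1 and of 0.52 and 0.58 in the others, whereas the cholesterol genes lie mostly below 0 in all 3.

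To see whether the early response lasts, the effect at 24 h was set beside that at 4 h. The comparisons share no library. CBD gave 71 DEGs of 14079 genes at 24 h (0.504%), and 27 genes were DEGs at both times in the same direction, which is 8.18% of the DEGs at 4 h and 38% of those at 24 h. *Mt1*, *Slc30a1*, *Slc30a2* and *Mt2A* had log2FCs of 4.01, 0.98, 3.50 and 2.83 at 24 h (adjusted p between 0.00208 and 0.0152 in limma), and *Slc39a10* one of -1.93 (adjusted p = 0.00208 in limma). For these 5 genes the difference between the times was between -0.77 and 0.61, and limma gave it no adjusted p below 0.324. The median log2FC of the ATF4 list was 0.78 at 24 h and that of the ER list 0.32. In limma 0 of 28 and 0 of 23 members were DEGs at 24 h, with or without the block, while 21 and 17 had an unadjusted p under 0.05. The spread at 24 h was wide, as for *Hmox1*, with 23.6, 283 and 934 CPM (reads scaled to a common library total) in the CBD libraries and a log2FC of 3.72 (adjusted p = 0.122 in limma). The cholesterol list had a median of -0.26 at 24 h, with 1 DEG.

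A test of the difference between the effects at 24 h and 4 h called 8 of 14503 genes (0.0552%), 1 with a higher effect at 24 h (0.0069%) and 7 with a lower one (0.0483%). *Scd*, the stearoyl-CoA desaturase gene, fell more at 24 h, with a log2FC of -1.07 against -0.27 at 4 h, a difference of -0.80 (SE 0.094, with adjusted p = 0.0223 in limma). The potassium channel genes *Kcnq3* and *Kcnn1* had -0.71 against -0.00 and -0.99 against -0.06. *Fam131a*, *Hivep2* and *Rasd2* likewise fell more at 24 h. *Slc44a5*, a choline transporter-like gene, went the other way, with 1.00 at 24 h and 0.18 at 4 h. These genes other than *Scd* were chosen after their values had been seen, since the count was small. Without replicate 1 the count was 2, without replicate 2 it was 0 in limma, and without the block it was 0, while DESeq2 called 68 genes.

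The effect of CBD at 4 h was also set beside that of DMF at 4 h. The doses and vehicles differ, so the values stand side by side and say nothing on potency, and the comparisons share no library. DMF gave 3274 DEGs of 14208 genes tested (23%). The difference between the effects was called for 1527 of 14615 genes (10.4%), 847 higher with CBD (5.8%) and 680 lower (4.65%), and for 98 of the 330 DEGs of CBD. Without replicate 3 the count was 162, without replicate 1 it was 774, and without the block it was 146. The zinc genes differed. For *Mt1* the log2FC was 3.54 with CBD and -0.66 with DMF, a difference of 4.20 (adjusted p = 4.79e-05 in limma), and for *Mt2A* 2.22 and -0.63, a difference of 2.85 (adjusted p = 0.000116 in limma). *Slc30a1* had 1.18 and -0.03, *Slc30a2* 3.50 and 0.11, and *Slc39a10* -1.16 and 0.10, with an adjusted p for the difference between 1.05e-05 and 0.00555. *Hmox1* differed the other way, with 1.59 and 3.92, a difference of -2.33 (adjusted p = 0.00212 in limma).

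The ER, ATF4 and cholesterol lists had medians of the same sign with both drugs. With DMF at 4 h, the median log2FC was 0.43 for the ER list, 0.30 for the ATF4 list and -0.44 for the cholesterol list, against 0.36, 0.36 and -0.29 with CBD. In the ER list, 18 of 23 genes were upregulated with DMF and 1 downregulated. In the ATF4 list 17 of 28 were upregulated, and in the cholesterol list 16 of 20 were downregulated. Of all genes tested with DMF, 11.5% were upregulated and 11.5% downregulated. The difference between the drugs was called for 3 of 23 ER genes, 1 of 28 ATF4 genes and 3 of 20 cholesterol genes, against 10.4% of all genes tested. *Hspa5* had 0.83 with CBD and 0.89 with DMF, a difference of -0.05 (SE 0.156, with adjusted p = 0.873 in limma). *Msmo1* was one that differed, with -0.41 with CBD and -1.06 with DMF (adjusted p = 0.0122 in limma). With MMF at 4 h, the medians of the 3 lists were -0.00, -0.04 and -0.12, and the log2FCs of *Mt1*, *Slc30a1* and *Slc39a10* were -0.04, -0.01 and -0.01.

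**Figure D4:**
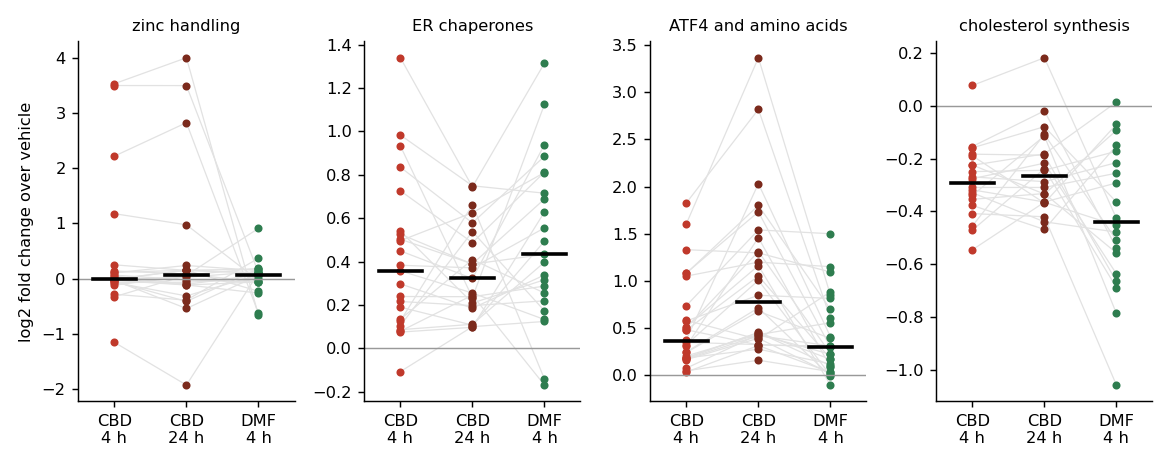
Log2 fold change over vehicle of the tested members of 4 groups of genes with CBD at 4 h, CBD at 24 h and DMF at 4 h, with grey lines joining the values of 1 gene and black bars for medians. The zinc genes that move with CBD stay near 0 or below with DMF, while the medians of the ER genes lie above 0 and those of the cholesterol genes below 0 with both drugs, at doses of 6 and 30 µM.

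Across all 10 groups of the series, the levels were compared as CPM, scaled by TMM over the 30 libraries. *Mt1* stood at 187 ± 108 (SD, n = 3) CPM with CBD at 4 h and 175 ± 49.0 (SD, n = 3) at 24 h, and its libraries of the other 8 groups lay between 5.41 and 26.4 CPM. *Slc30a1* was at 73.3 ± 3.58 (SD, n = 3) and 60.1 ± 8.61 (SD, n = 3) CPM with CBD and between 29.6 and 40.2 CPM in the libraries of the other groups, the highest of which were those of DMF at 24 h. *Slc39a10* was at 46.7 ± 20.8 (SD, n = 3) and 31.0 ± 8.14 (SD, n = 3) CPM with CBD and between 70.7 and 118 CPM in the others, so that its CBD library of replicate 1 at 4 h, at 70.71 CPM, just met the lowest library of DMF at 24 h, at 70.67 CPM. For *Mt1* and *Slc39a10* the CBD libraries of 4 and 24 h overlapped, so their order is not set beyond their spread. For *Slc30a1* the effect at 24 h minus that at 4 h was -0.20 on the log2 scale (SE 0.123, with adjusted p = 0.564 in limma). *Hspa5*, by contrast, was at 816 ± 193 (SD, n = 3) CPM with CBD at 4 h and at 776 ± 4.38 (SD, n = 3) with DMF at 4 h, and these groups overlapped too.

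**Figure D5:**
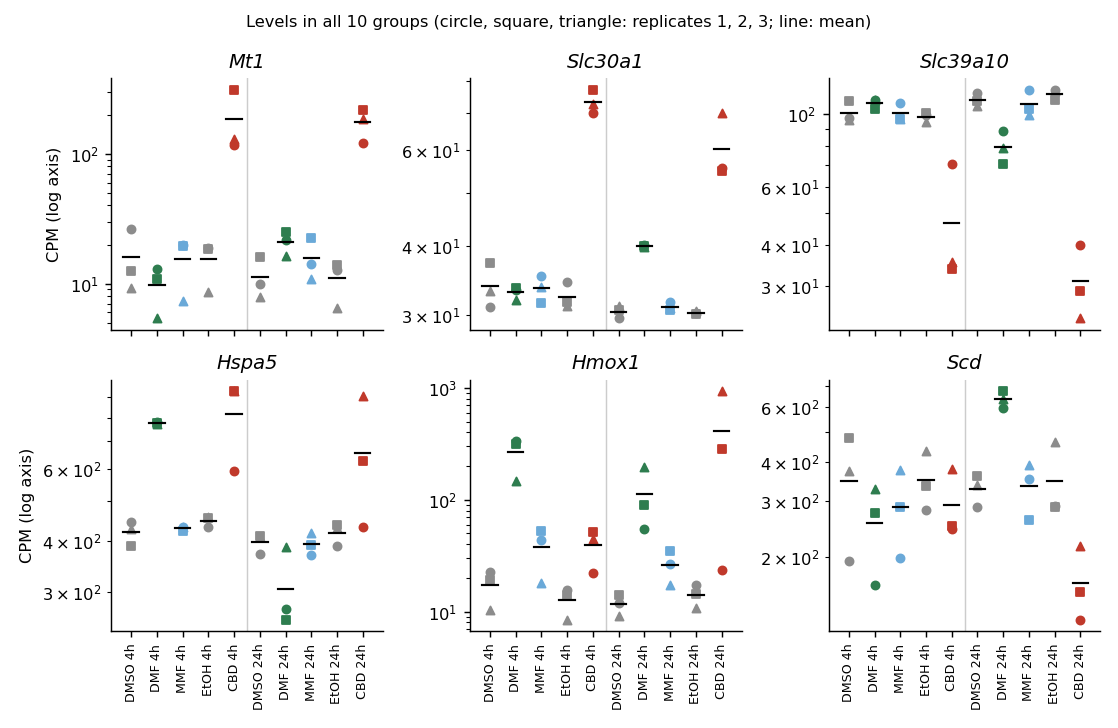
Levels of 6 genes in CPM (log axis) in the 30 libraries of the 10 groups, with symbols for the replicate numbers, red for CBD, green for DMF, light blue for MMF and grey for vehicles, and black lines for means. The CBD libraries of *Mt1* and *Slc30a1* lie above those of all other groups at both times, and *Hmox1* is higher with DMF than with CBD at 4 h.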

How the data were processed

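RNA of 30 libraries was sequenced, and 6 are compared here. Per the labels and methods, the authors used FastQC 0.12.1, cutadapt 4.4, Trimmomatic 0.39, HISAT2 2.2.1, HTSeq 2.0.3, R 4.3.1 and DESeq2 1.40.2 with the mRatBN7.2 genome. The strand setting of the counting is not given in the sources used here. The deposited values are a signal: for each table of 6 libraries, the authors scaled the read counts of genes with size factors from DESeq2. Dividing by these steps gave whole reads for 100.0% of values (tolerance 0.001). The authors' columns of means, fold changes, standard errors, statistics and p-values were not used, nor were 13 of the 19 tables.

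Genes passing edgeR's filterByExpr were tested with limma 3.58.1 in R 4.3.3 on log2(normalized count + 1), with a trended prior, the replicate number as a block and Benjamini-Hochberg adjustment at 0.05. Same-numbered libraries deviated together (r between 0.473 and 0.668, against -0.498 to 0.137 for different numbers). With the block, the p-values measure how the effect varied between the 3 replicate numbers. The labels do not say that replicates were separate animals, so this is not a known spread between animals. The main fit had 2 residual degrees of freedom beside 17.1 from the trended prior, so the spread of each gene was largely borrowed from other genes. Differences between effects were interaction terms fitted on 12 libraries, and CPM were scaled by TMM. edgeR 4.0.16 and DESeq2 1.42.0 on the recovered reads, no block, TMM, a pseudocount of 0.1, no filter, the spread of all 30 libraries, a log2FC of at least 0.5 and leaving out each replicate were the alternatives. The code was tested on simulated data. Named were the 15 upregulated and 15 downregulated genes with the smallest p and the same sign in all 3 replicate numbers. Also named were the genes the study names for CBD and, from each of 36 lists, the DEGs. A list without DEGs gave its members with the smallest p. The members and lists were chosen with earlier results of these data known. Some genes of these lists are not reported here.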

Additional observations from a re-analysis of the deposited data

Results flagged for a closer look

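The effect of CBD differed between 24 h and 4 h for 8 genes by an interaction test in limma. *Scd*, with a difference of -0.80 on the log2 scale (SE 0.094, with adjusted p = 0.0223 in limma), had the smallest p among them. It stood at 246, 251 and 380 CPM with CBD and 282, 337 and 436 CPM with EtOH at 4 h, and at 126, 154 and 216 CPM against 290.5, 287.5 and 463.5 CPM at 24 h. CBD was lower in each replicate number at both times. In limma 0 genes with a lower effect at 24 h, *Scd* included, were called without replicate 1, without replicate 2 or without the block.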

How the results depend on the processing

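The replicate block decided most calls. Without it 1 gene was a DEG (1 higher, 0 lower, with 563 unadjusted p-values under 0.05), no ER, ATF4 or cholesterol gene was one (0 each), the difference between the times was called for 0 genes (0 higher, 0 lower), and that between the drugs for 146 (76 higher, 70 lower). DESeq2 called 92 genes (63 higher, 29 lower), with 4 ER and 1 ATF4 genes, and 68 genes between the times (5 higher, 63 lower). Without a filter 161 were called (116 higher, 45 lower), with 6 ATF4 genes. With the spread of all 30 libraries 53 were called (40 higher, 13 lower), with 0 ATF4 and 3 cholesterol genes. With a log2FC of at least 0.5 the counts were 76 (65 higher, 11 lower), with 8 ER and 1 cholesterol genes, and 761 between the drugs (472 higher, 289 lower). The share of calls that were higher, 71.2%, became 85.5% with that minimum. Leaving out each replicate gave 205 to 398 DEGs (147 to 290 higher, 58 to 108 lower), with 11 to 16 ER, 8 to 23 ATF4 and 12 to 16 cholesterol genes. It gave 0 to 6 genes between the times (0 to 2 higher, 0 to 5 lower) and 162 to 1201 between the drugs (114 to 714 higher, 48 to 487 lower). edgeR, TMM scaling and a pseudocount of 0.1 kept these counts within 1.5 times. Of 86 named DEGs, 85 were called by edgeR, 86 with TMM scaling and 41 of the 81 with an adjusted p in DESeq2. A pseudocount of 0.1 kept 81, no filter 59, the spread of all 30 libraries 25 and no block 1. Without replicate 1, 2 or 3, the calls kept were 82, 69 and 66. Of all 330 DEGs, 30 were called in each of 9 alternatives, that is, all but no block and the log2FC minimum. The direction turned for 4 markers that were not called. *C1qa* was at 0.079 in edgeR and between -0.899 and 0.141 with a replicate left out, *Col1a1* between -0.476 and 0.173, *Pdgfrb* between -0.003 and 0.121, and *Pecam1* between -0.327 and 0.046. The cause of these changes was not tested. With 3 libraries a group, low counts such as those of *Trib3* and the microglial markers limit precision.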

Other observations

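Further groups of genes were formed after their values had been seen, so their counts are descriptions. Of 83 collagens, laminins and other matrix proteins tested, 12 were upregulated and 0 downregulated, against 1.66% of all genes upregulated. Their median log2FC was 0.07. *Nid2*, which links laminin to collagen in basement membranes, had 686, 1398 and 352 normalized counts with CBD and 510, 599 and 236 with EtOH. Its groups overlapped, since replicate 3 was low in both, and its log2FC was 0.74 (SE 0.105, with adjusted p = 0.000396 in limma). *Col12a1*, *Fn1* and *Lama5* had log2FCs of 0.66, 0.30 and 0.39, and their groups overlapped as well. The summed fibroblast markers lay between 696 and 1362 with CBD and between 714 and 1535 with EtOH, and their part in these values was not tested.

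All 18 circadian clock genes tested had a log2FC above 0, with a median of 0.19. Of these, 4 were upregulated, against 1.66% of all genes tested. *Dbp*, a clock output gene, had 367, 471 and 354 normalized counts with CBD and 295, 308 and 278 with EtOH, without overlap. *Ciart*, *Bhlhe40* and *Rorb* had log2FCs of 0.95, 0.44 and 0.53, each with overlapping groups. Of 14 genes of interleukin 6 family receptors and STAT3, 4 rose, against the same 1.66%. Among them were *Cebpd* (log2FC 0.85, with adjusted p = 0.000806 in limma) and *Osmr*, the oncostatin M receptor (log2FC 1.13, with adjusted p = 0.00774 in limma). The groups of both genes overlapped. Of 4 guanylate-binding proteins, *Gbp5* and *Gbp2* rose, with log2FCs of 1.76 and 0.91, beside the same 1.66% of all genes. *Gbp5* had low normalized counts, 21.3, 103 and 87.8 with CBD and 22.4, 19.0 and 10.3 with EtOH. Its groups overlapped, and its change came from replicates 2 and 3.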
